A study of Mus musculus with 6 samples.

Results

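The genes described here make, regulate or export cholesterol and long-chain fatty acids. They were 32 named genes: 15 enzymes of sterol synthesis, 5 genes of sterol regulation and transport, 10 genes of fatty acid synthesis, elongation and desaturation, and 2 cholesterol exporters. Of the 32, 31 had a probe set annotated to that gene alone among the 12393 genes tested, and Insig1 was not analysed here. Expression was read on 3 USP7-titled and 3 control arrays of mouse Treg, or regulatory T cells, which need Foxp3 to keep immune responses in check. The CD4+YFP+ cells were sorted from C57BL/6 mice of unstated age, and all 6 samples carried Foxp3cre, a Cre recombinase expressed under Foxp3, so that deletion is limited to cells that express it. The USP7-titled samples are described by the series text as a floxed Usp7 allele deleted by Foxp3cre, whereas their genotype field reads fl-HDAC11/Foxp3cre; the 3 control samples carry B6_WT titles and the genotype Foxp3cre. Groups were taken from the titles.

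Cells make cholesterol from acetyl-CoA through mevalonate, squalene and lanosterol, and fatty acids from the same precursor through malonyl-CoA. Both pathways are switched on by the sterol regulatory element binding proteins (SREBP, encoded by Srebf1 and Srebf2), which Scap escorts from the endoplasmic reticulum when sterols are scarce and which Insig proteins hold back when sterols are plentiful. Liver X receptors act in the opposite sense on cholesterol: they sense oxysterols and turn on the exporters Abca1 and Abcg1. In T cells, growth and division need new membrane lipid, and in Treg the mevalonate pathway is known to be needed for suppressive function.

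Each value is a deposited log2 level of 1 probe set, the brightest of its gene, and groups are compared only within a probe set. Bright, dim and low describe a probe set's signal and not the abundance of a transcript against others. Arrays of a group were alike, with Pearson's r across gene probe sets of 0.991 to 0.992 among USP7-titled arrays, 0.995 to 0.996 among control arrays and 0.969 to 0.974 between the groups. Usp7 averaged 10.67 ± 0.11 in USP7-titled arrays and 11.68 ± 0.06 in control arrays (SD, n = 3 each), a log2 change of -1.01. Hdac11 was dim, with 5.81 ± 0.20 in USP7-titled arrays and 6.38 ± 0.24 in control arrays (SD, n = 3 each), a log2 change of -0.58. Where these probes lie relative to a deleted exon was not analysed here. The T cell markers Cd3e, Cd3d, Cd3g and Cd4 were bright on all 6 arrays, at 12.40 or above. The defining Treg marker Foxp3 read 6.85, 7.29 and 6.87 in USP7-titled arrays, against 12.82, 13.13 and 12.99 in control arrays. Of 10 measured Treg and T cell markers 7 were lower and 0 higher, where 15.9% of all genes were lower and 17.0% higher. The largest fall was that of Foxp3, a change of -5.98 that left 1.59% of the control level. Ctla4 changed by -0.36, Cd28 by -0.30 and Ikzf2 by -0.21. The female transcript Xist averaged 5.30 in USP7-titled arrays and 12.50 in control arrays while the Y-linked Eif2s3y averaged 10.15 in USP7-titled arrays and 4.50 in control arrays (3 of 4 sex-linked genes higher, 1 lower), so the sex of the mice and the group cannot be told apart in any value below.

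As a group, the sterol synthesis enzymes stood higher in USP7-titled arrays and the exporters lower. The median log2 change was 0.44 for the sterol enzymes and 0.14 for the fatty acid synthesis genes. All these genes were chosen with earlier results of these data known. By limma's moderated test at an adjusted p of 0.05 (Benjamini-Hochberg, over all genes), 14 of the 31 measured genes were higher, 3 were lower and 14 did not pass. Over all genes tested, 17.0% were higher and 15.9% lower by the same rule, 32.9% in all. In 15 of the 31 the USP7-titled arrays all lay above the control arrays and in 4 all below, where over all genes these shares were 20.9% and 24.7%, or 45.6% together. The median log2 change of the 31 was 0.18, against -0.05 over all genes.

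**Figure D1:**
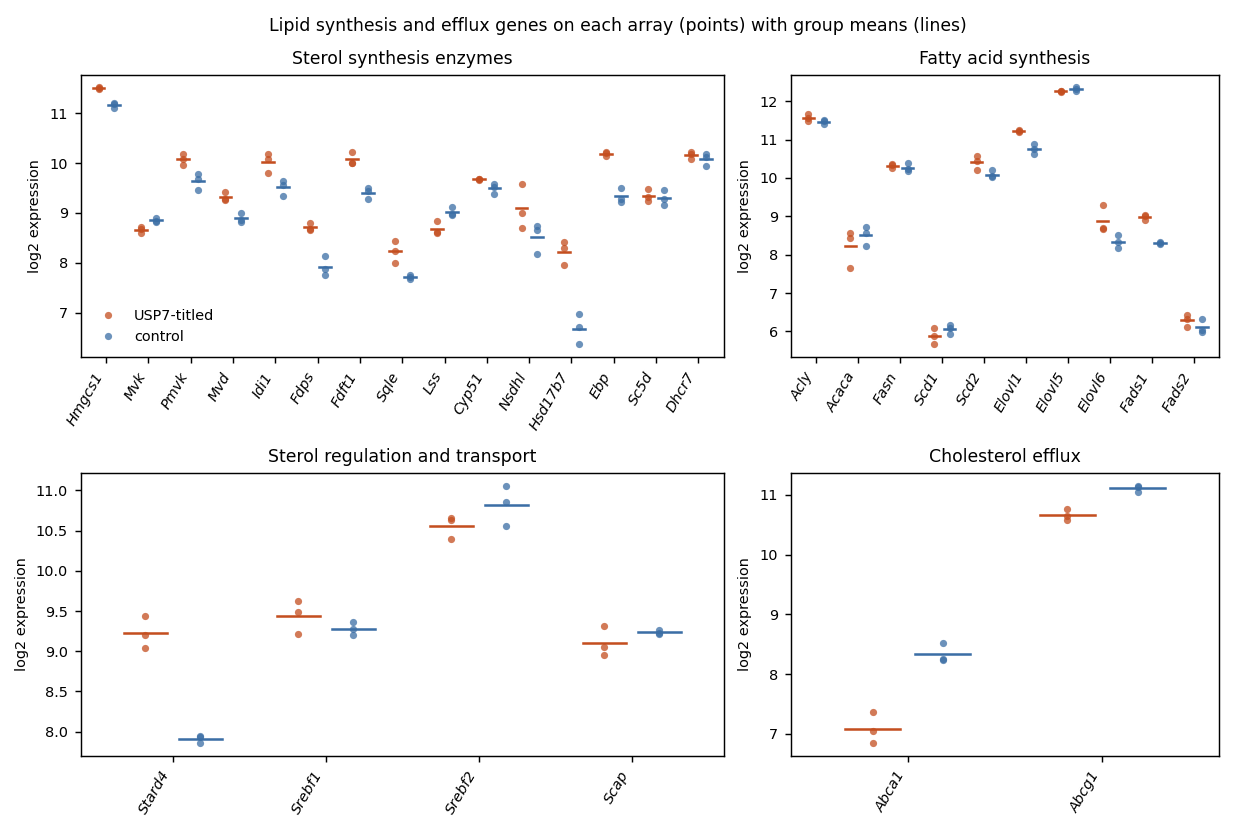
Log2 expression (vertical axis) of each of the 31 measured genes (horizontal axis) on the 3 USP7-titled arrays (left point column of each pair) and the 3 control arrays (right column), by role, in the order of the pathway; points are arrays and lines are group means. The groups are clear of each other for most enzymes between Pmvk and Sqle, for Hsd17b7, Ebp and Stard4, and, in the opposite direction, for Abca1 and Abcg1.

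Sterol synthesis enzymes made up most of the rises. Of 15 measured, 9 were higher, Lss was lower and 5 did not pass, with a median log2 change of 0.44. The shares over all genes were 17.0% higher and 15.9% lower. The mean over these 15 genes stood 0.39, 0.42 and 0.47 above the control mean on the 3 USP7-titled arrays, whereas the control arrays lay within 0.012 of it. By the brightest probe set, the rises were small for most enzymes, between 1.27-fold and 1.81-fold. Hsd17b7 read 2.92-fold by its brightest probe set and 1.54-fold by its other one.

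The first steps lead from acetyl-CoA to the isoprene units. Hmgcs1, the HMG-CoA synthase that commits carbon to mevalonate, read 11.51, 11.49 and 11.52 in USP7-titled arrays, against 11.20, 11.19 and 11.11 in control arrays. Its groups did not overlap, and the log2 change was 0.34 (SE 0.05, limma adjusted p = 0.000532). Its 3 dimmer probe sets were also higher, by 0.33 to 0.62. Mvk, the kinase that phosphorylates mevalonate, went against this with 8.72, 8.68 and 8.59 in USP7-titled arrays and 8.81, 8.89 and 8.84 in control arrays. Although the Mvk arrays did not overlap, its change of -0.18 did not pass (limma adjusted p = 0.192), and its other probe set stood at 0.03.

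Pmvk, the next kinase, read 10.19, 9.97 and 10.08 in USP7-titled arrays, against 9.79, 9.68 and 9.46 in control arrays. Mvd, the decarboxylase that yields isopentenyl diphosphate, read 9.26, 9.28 and 9.42 in USP7-titled arrays, against 8.82, 8.87 and 8.996 in control arrays. Both were higher on every USP7-titled array, Pmvk by 0.44 (SE 0.11, limma adjusted p = 0.00784) and Mvd by 0.42 (SE 0.10, limma adjusted p = 0.00799). Idi1, the isomerase that balances the isoprene units, read 9.81, 10.08 and 10.18 in USP7-titled arrays, against 9.63, 9.56 and 9.35 in control arrays. Its lowest USP7-titled array lay closer to the control arrays than the others did, and the change was 0.51 (SE 0.12, limma adjusted p = 0.00584), with 0.60 by its other probe set.

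The middle steps build squalene and close the ring. Fdps, which joins the units to farnesyl diphosphate, read 8.79, 8.68 and 8.66 in USP7-titled arrays, against 7.88, 7.75 and 8.13 in control arrays, and so changed by 0.79 (SE 0.13, limma adjusted p = 0.00058). Fdft1, the squalene synthase, read 10.005, 10.22 and 10.01 in USP7-titled arrays, against 9.44, 9.501 and 9.28 in control arrays, and so changed by 0.67 (SE 0.10, limma adjusted p = 0.000375). Both genes have dim probe sets that did not rise. The one of Fdps averaged 4.89 in USP7-titled arrays and 5.24 in control arrays. Its USP7-titled arrays all lay below the control arrays. The change of -0.36 did not pass in a fit over all probe sets (limma adjusted p = 0.0659). Those of Fdft1 stood at -0.10 and -0.06. With all probe sets of a gene averaged, the change of Fdps was 0.22 (limma adjusted p = 0.163) and that of Fdft1 0.24 (limma adjusted p = 0.0986). A second bright Fdft1 probe set, at 9.94 in USP7-titled arrays and 9.49 in control arrays, was higher by 0.45.

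Sqle, the squalene epoxidase and a rate-controlling enzyme of the pathway, read 8.004, 8.44 and 8.24 in USP7-titled arrays, against 7.72, 7.68 and 7.75 in control arrays. It was higher by 0.51 (SE 0.13, limma adjusted p = 0.0106), with a wider spread among USP7-titled arrays than among control arrays. Lss, the lanosterol synthase that closes the sterol ring from the product of Sqle, was the one enzyme that fell. It read 8.84, 8.62 and 8.60 in USP7-titled arrays, against 9.13, 8.98 and 8.96 in control arrays, and so changed by -0.33 (SE 0.11, limma adjusted p = 0.0389), and its other probe sets fell by 0.35 and by 0.90. The call is close to the threshold: it was lost when any array but USP7-titled replicate 1 was left out, with changes of -0.37 to -0.28 and limma adjusted p of 0.058 to 0.148. Scaled to the hybridization spikes, which moved the median of all genes from -0.05 to 0.11, Lss stood at -0.18 (limma adjusted p = 0.278).

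Of the enzymes that turn lanosterol into cholesterol, 2 of 6 were higher, where 17.0% of all genes were higher. Whether these shares differ was not tested. Hsd17b7, the sterol ketoreductase of the demethylation complex, read 7.96, 8.30 and 8.41 in USP7-titled arrays, against 6.36, 6.97 and 6.71 in control arrays. By the brightest probe sets this was the largest change among the 31 genes, 1.54 (SE 0.17, limma adjusted p = 4.9e-05). By the same measure 1.5% of all genes had a larger positive difference. The other Hsd17b7 probe set rose by 0.62. Both probe sets averaged 6.68 in control arrays, against 8.23 and 7.30 in USP7-titled arrays. The brightest was thus set by the USP7-titled arrays, where it is high. With probe sets averaged, the change was 1.08 (limma adjusted p = 0.000384). Ebp, the sterol isomerase, read 10.23, 10.20 and 10.14 in USP7-titled arrays, against 9.22, 9.496 and 9.27 in control arrays, and so changed by 0.86 (SE 0.10, limma adjusted p = 5.2e-05). Ebp and Nsdhl lie on the X chromosome, and sex differed with the group.

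The other 4 did not pass. Nsdhl, the dehydrogenase of the demethylation complex, read 8.997, 8.69 and 9.59 in USP7-titled arrays, against 8.74, 8.18 and 8.65 in control arrays, and its groups overlapped. The difference was 0.57 (SE 0.21, limma adjusted p = 0.0638); without USP7-titled replicate 2 it was 0.77 and passed (limma adjusted p = 0.0165). Leaving out USP7-titled replicate 3 instead gave 0.32 (limma adjusted p = 0.216). Cyp51, the lanosterol demethylase, read 9.68, 9.66 and 9.68 in USP7-titled arrays, against 9.59, 9.52 and 9.38 in control arrays, with a difference of 0.18 (limma adjusted p = 0.17), with other probe sets at 0.08 and -0.42. The last enzymes, the desaturase Sc5d at 0.04 (95% interval -0.20 to 0.29) and the reductase Dhcr7 at 0.09 (95% interval -0.12 to 0.29), had overlapping groups. Under spike scaling Cyp51 and Nsdhl also passed as higher, by 0.34 and 0.73.

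**Figure D2:**
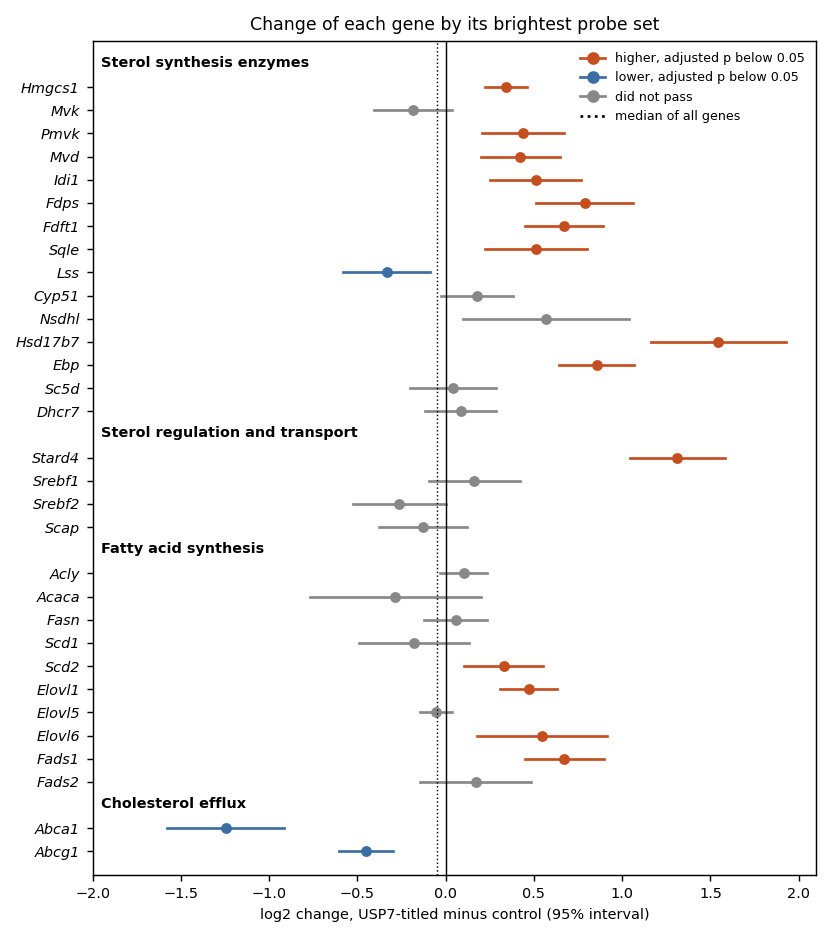
Log2 change of each gene (USP7-titled minus control, horizontal axis) with its 95% interval from limma, for the brightest probe set, in pathway order; colours mark genes that passed as higher or lower and the dotted line is the median of all genes at -0.05. Most sterol enzymes lie to the right of 0, Acly and Fasn lie near it, and Abca1 and Abcg1 lie to the left.

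To show which control elements stand before these genes, promoter windows from RefSeq (build GRCm38.p6) were searched over the 250 bases before each annotated start; 24 of the 32 genes have a window in that table. The motifs were the sterol regulatory element TCACNCCAC, where N is any base, the CCAAT box (CCAAT) bound by NF-Y, a known partner of SREBP, and the GC box (GGGCGG) bound by Sp1, each on both strands. All 12 sterol enzyme genes with a window held a CCAAT box, against 39.9% of the 9887 tested genes with a window, and 8 of the 12 held 2 or more. The box closest to the start began within 100 bases of it in 11 of the 12. A GC box stood in 11 of the 12, against 57.0% of tested genes. The sterol regulatory element matched in Hmgcs1 alone, against 1.29% of tested genes. Only these letters within the 250 bases were searched, so a missing match does not show that a site is absent. The fatty acid genes held a CCAAT box in 3 of 7. A match is a description of the letters and not a measured site, and the CCAAT box was present both in genes that rose and in Lss, which fell.

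The following windows, read 5′ to 3′ on the strand of the gene and ending at the base before its start, show 4 of the genes that rose and then Lss. Capitals mark the sterol regulatory element in Hmgcs1 and the CCAAT boxes, which appear here on the opposite strand as ATTGG.
Hmgcs1, chr13:119690201-119690350, plus strand: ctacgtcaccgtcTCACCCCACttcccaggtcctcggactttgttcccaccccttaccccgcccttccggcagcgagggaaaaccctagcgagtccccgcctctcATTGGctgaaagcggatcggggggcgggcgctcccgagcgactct
Idi1, chr13:8885506-8885605, plus strand: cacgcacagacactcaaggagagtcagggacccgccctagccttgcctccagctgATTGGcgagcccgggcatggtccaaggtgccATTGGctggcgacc
Hsd17b7, chr1:169969206-169969305, minus strand: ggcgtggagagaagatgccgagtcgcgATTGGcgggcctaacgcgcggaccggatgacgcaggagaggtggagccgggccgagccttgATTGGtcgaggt
Ebp, chrX:8193513-8193612, minus strand: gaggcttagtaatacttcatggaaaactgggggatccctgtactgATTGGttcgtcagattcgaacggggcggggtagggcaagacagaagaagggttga
Lss, chr10:76531505-76531604, plus strand: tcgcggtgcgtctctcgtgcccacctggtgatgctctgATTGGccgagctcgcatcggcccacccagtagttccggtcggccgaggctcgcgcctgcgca

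**Figure D3:**
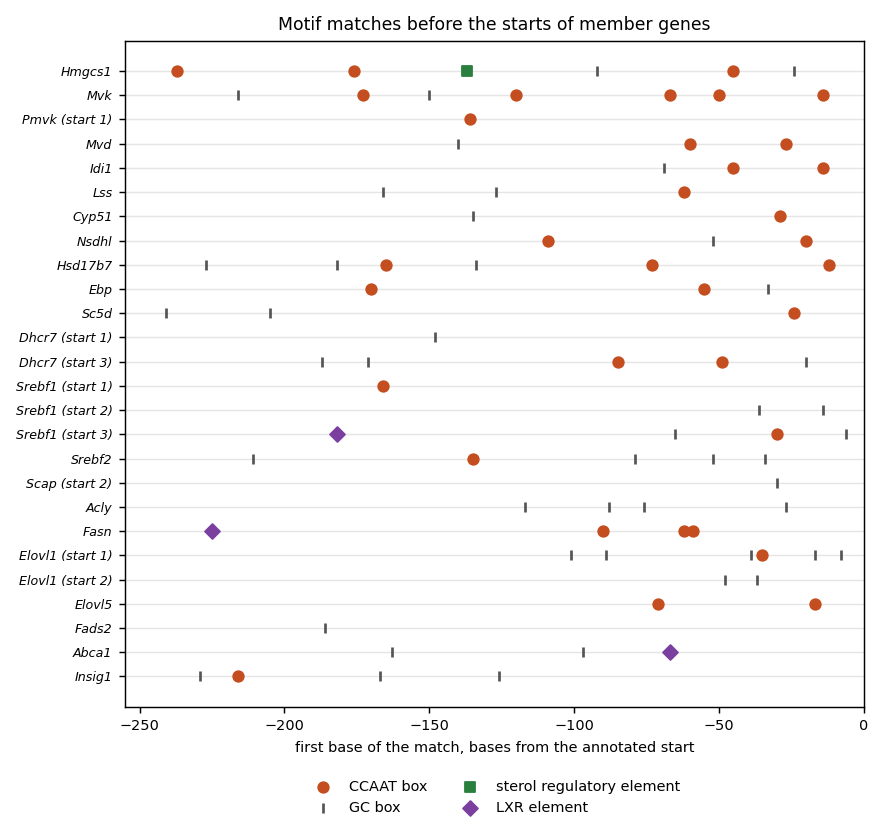
Position of each motif match (horizontal axis, bases from the annotated start) in the windows of member genes that hold at least 1 match, with several annotated starts of a gene on separate lines; symbols mark the CCAAT box, the GC box, the sterol regulatory element and the liver X receptor (LXR) element. CCAAT boxes cluster within 100 bases of the start in the sterol enzyme genes, and the LXR element appears in Srebf1, Fasn and Abca1.

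Among the genes that regulate the pathway only Stard4 passed the test: of 4 measured, 1 was higher, 0 lower and 3 did not pass. With 17.0% of all genes higher and 15.9% lower, a count of 1 in 4 says little about these genes as a group. Stard4, a soluble carrier that moves sterol between membranes and is itself a known SREBP target, read 9.04, 9.20 and 9.44 in USP7-titled arrays, against 7.95, 7.93 and 7.86 in control arrays. All USP7-titled arrays lay above all control arrays, and the gene rose by 1.31 (SE 0.12, limma adjusted p = 1.3e-05), or 2.48-fold, and a second probe set rose by 0.67. Srebf2, the SREBP that favours sterol genes, read 10.64, 10.40 and 10.65 in USP7-titled arrays, against 10.86, 11.06 and 10.56 in control arrays. Control replicate 3 lay among the USP7-titled arrays, and the change of -0.26 (SE 0.12) did not pass (limma adjusted p = 0.121); without that array it was -0.40 and passed as lower (limma adjusted p = 0.013), and without control replicate 2 it was -0.14 (limma adjusted p = 0.409). Srebf1, the SREBP that favours fatty acid genes, read 9.21, 9.49 and 9.62 in USP7-titled arrays, against 9.36, 9.27 and 9.20 in control arrays, with a difference of 0.16 (95% interval -0.10 to 0.42). Scap read 8.95, 9.05 and 9.32 in USP7-titled arrays, against 9.22, 9.22 and 9.26 in control arrays, with a difference of -0.13 (95% interval -0.38 to 0.12), which turned to 0.03 under spike scaling. These are transcript levels, and SREBP is controlled by cleavage of the protein, which was not measured.

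Among the genes of fatty acid synthesis, Fads1, Elovl1, Elovl6 and Scd2 rose. Of 10 measured genes, 4 were higher, 0 were lower and 6 did not pass, with a median log2 change of 0.14. Over all genes tested 17.0% were higher and 15.9% lower. At an unadjusted p under 0.05 none of the 10 was lower either. The mean over the 10 genes stood 0.16 to 0.20 above the control mean on the USP7-titled arrays.

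The core enzymes come first. Acly, which makes cytosolic acetyl-CoA from citrate, read 11.49, 11.67 and 11.55 in USP7-titled arrays, against 11.50, 11.49 and 11.40 in control arrays, with a difference of 0.10 (95% interval -0.03 to 0.24). Acaca, the acetyl-CoA carboxylase that makes malonyl-CoA, read 8.58, 7.64 and 8.45 in USP7-titled arrays, against 8.24, 8.72 and 8.56 in control arrays. USP7-titled replicate 2 was the low one: the Acaca change was -0.29 (95% interval -0.77 to 0.20) with it and 0.00 without it. Fasn, the synthase that builds palmitate, read 10.35, 10.26 and 10.34 in USP7-titled arrays, against 10.18, 10.38 and 10.22 in control arrays, with a difference of 0.06 (95% interval -0.12 to 0.24). For the brightest probe sets of these 3 enzymes the groups overlapped. A dimmer Acly probe set, averaging 9.89 in USP7-titled arrays and 9.66 in control arrays, did not overlap. Its change of 0.23 did not pass in a fit over all probe sets (limma adjusted p = 0.0654). The remaining Acly probe sets stood at -0.01, 0.11 and 0.01. Under spike scaling Acly passed as higher by 0.26 (limma adjusted p = 0.0286).

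Of the 7 genes of chain elongation and desaturation 4 rose and 3 did not pass, where 17.0% of all genes were higher. Whether these 7 genes differ from the core enzymes was not tested. Fads1, the front-end desaturase on the path to arachidonic acid, read 9.003, 9.03 and 8.90 in USP7-titled arrays, against 8.31, 8.32 and 8.28 in control arrays. The 6 values fell into 2 tight groups, and the change was 0.67 (SE 0.10, limma adjusted p = 0.000399). Elovl1, the elongase of very long saturated chains, read 11.26, 11.23 and 11.19 in USP7-titled arrays, against 10.63, 10.75 and 10.88 in control arrays, and so changed by 0.47 (SE 0.07, limma adjusted p = 0.0005). Its other probe sets stood at 0.50 and 0.31.

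Elovl6, which extends palmitate to stearate, read 8.66, 9.28 and 8.70 in USP7-titled arrays, against 8.51, 8.16 and 8.34 in control arrays, and so changed by 0.54 (SE 0.17, limma adjusted p = 0.0277). Its other probe set stood at 0.24 and did not pass in a fit over all probe sets (limma adjusted p = 0.141). In the brightest probe set USP7-titled replicate 2 was well above the other arrays. Without it the change was 0.34 (limma adjusted p = 0.0872), without control replicate 2 it was 0.46 (limma adjusted p = 0.109), and without control replicate 3 it was 0.55 (limma adjusted p = 0.0634). Scd2, a stearoyl-CoA desaturase that makes oleate, read 10.21, 10.45 and 10.57 in USP7-titled arrays, against 10.04, 10.01 and 10.20 in control arrays, and so changed by 0.33 (SE 0.10, limma adjusted p = 0.0293). The lowest USP7-titled value of Scd2 lay just above the highest control value. The call was lost without USP7-titled replicate 2 or 3 or control replicate 1 or 2, with changes of 0.25 to 0.31 and limma adjusted p of 0.0815 to 0.114, and its other probe sets stood at -0.12 and 0.22. With its probe sets averaged, Scd2 stood at 0.14 (limma adjusted p = 0.324). With an untrended variance prior both Elovl6 (limma adjusted p = 0.0528) and Scd2 (limma adjusted p = 0.0648) missed the threshold.

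The remaining genes of this group had overlapping arrays. Scd1, the paralog of Scd2 that dominates in liver, had a low signal, with 5.66, 5.88 and 6.08 in USP7-titled arrays and 5.93, 6.16 and 6.08 in control arrays. Fads2, the desaturase that acts before Fads1, had a low signal too, with 6.33, 6.43 and 6.10 in USP7-titled arrays and 6.33, 5.98 and 6.04 in control arrays. Elovl5, the elongase of polyunsaturated chains, read 12.25, 12.25 and 12.27 in USP7-titled arrays, against 12.26, 12.32 and 12.36 in control arrays. Its change of -0.05 (95% interval -0.14 to 0.03) turned to 0.10 under spike scaling and did not pass in either.

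Both cholesterol exporters fell. Abca1, which loads cholesterol and phospholipid onto lipid-poor apolipoprotein A-I, read 7.05, 6.85 and 7.36 in USP7-titled arrays, against 8.52, 8.23 and 8.26 in control arrays. No USP7-titled value came near the control values, and the change was -1.25 (SE 0.15, limma adjusted p = 8.3e-05), which left 42.1% of the control level. Its other probe sets fell by 1.26 and by 1.28, so 3 probe sets of different brightness gave nearly the same change. In all, 0.541% of genes had a more negative difference than Abca1. Abcg1, which exports cholesterol to high-density lipoprotein, read 10.76, 10.58 and 10.65 in USP7-titled arrays, against 11.05, 11.14 and 11.15 in control arrays. Its change was -0.45 (SE 0.07, limma adjusted p = 0.000468), or 73.1% of the control level, and it was -0.29 under spike scaling (limma adjusted p = 0.0242). Over all genes tested the share lower was 15.9%.

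The Abca1 window is shown because Abca1 is the standard target of the liver X receptors, whose element is a pair of half-sites. The half-sites were searched as GGTNA and GGTCA with 5 bases between them, on both strands, a motif added after the window had been read. It matched in 0.152% of tested genes and in 3 of the 24 member genes with a window, namely Abca1, Srebf1 and Fasn. The Abca1 match was fixed by that order of steps, so its place in this count is no support. In Abca1 the match, in capitals here on the opposite strand, began at -67 from the start.
Abca1, chr4:53159896-53159995, minus strand: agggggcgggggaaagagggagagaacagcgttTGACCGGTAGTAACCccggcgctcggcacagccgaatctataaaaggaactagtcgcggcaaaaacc
Of the 3 genes that hold the match, Abca1 fell, and Srebf1 and Fasn did not pass, at 0.16 and 0.06.

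Probe sets beyond the brightest gave a further reading of 20 of the 31 genes. Of 32 such probe sets, 23 had the same sign as the brightest and 9 the opposite one. In a fit over all probe sets, 9 of the 32 were higher and 4 lower; the 4 lower ones belong to Lss and Abca1. None of the 9 of opposite sign passed that fit.

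**Figure D4:**
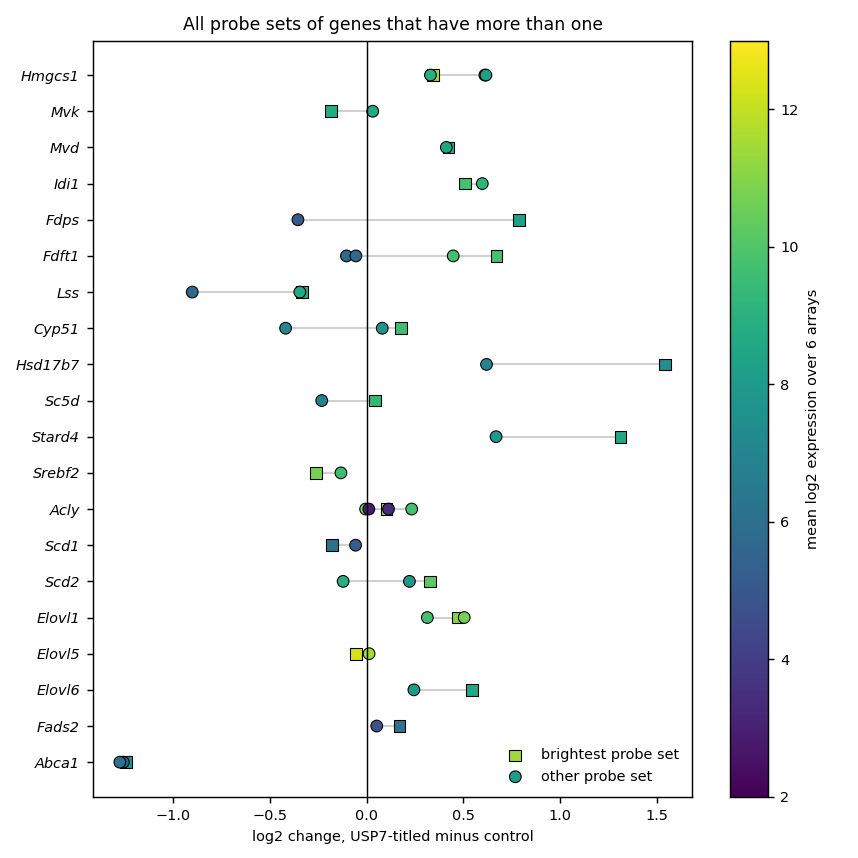
Log2 change (USP7-titled minus control, horizontal axis) of every probe set of the 20 genes that have more than 1; squares are the brightest probe set of a gene, circles the others, and the colour is the mean log2 expression over 6 arrays. The 3 Abca1 probe sets coincide near -1.25, the Fdps and Fdft1 probe sets split between bright ones above 0 and dim ones below it, and the Hsd17b7 probe sets differ in size.

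Other genes of the pathway were read from lists drawn up beside the members. Of 10 further sterol genes measured, 3 were higher and 1 lower, where over all genes 17.0% were higher and 15.9% lower, and the list median was 0.07. Tmem97, an endoplasmic reticulum protein of cholesterol trafficking, read 8.74, 8.71 and 8.96 in USP7-titled arrays, against 7.65, 7.81 and 7.93 in control arrays, and so changed by 1.01 (limma adjusted p = 9.6e-05). Lbr, the lamin B receptor that is also a sterol reductase, rose by 0.69 (limma adjusted p = 7.8e-06), and Msmo1, the sterol methyl oxidase of the demethylation complex, rose by 0.41 (limma adjusted p = 0.0421). Mmab, a cobalamin enzyme, fell by 1.02 (limma adjusted p = 0.000882), averaging 8.39 ± 0.34 in USP7-titled arrays and 9.41 ± 0.23 in control arrays (SD, n = 3 each). Mmab lies back to back with Mvk on chromosome 5, with 242 bases between their annotated starts in GRCm38.p6; Mvk stood at -0.18, which did not pass. The receptor gene Nr1h2 was not analysed here.

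Of 19 further fatty acid genes, 4 were higher and 1 lower, where over all genes 17.0% were higher and 15.9% lower. Their median was -0.08, with 11 of the 19 below 0. Mid1ip1, a protein that activates acetyl-CoA carboxylase, read 9.33, 9.23 and 9.37 in USP7-titled arrays, against 8.16, 8.10 and 8.08 in control arrays, and so changed by 1.20 (limma adjusted p = 6.4e-06). The acyl-CoA synthetases Acsl4 and Acsl5 rose by 0.49 and 0.36, and Lpin1, a phosphatidate phosphatase, by 0.45. Mid1ip1 and Acsl4 lie on the X chromosome, and sex differed with the group. Tecr, the reductase that completes each elongation cycle and the one member of this list that fell, dropped by 0.34; it was named after its value was seen. Of 11 genes of sterol storage and liver X receptor action, 3 were higher and 2 lower, beside the same 17.0% and 15.9% over all genes. Their median was -0.04. The receptor partner Rxra rose by 0.70 and Rxrb fell by 0.48. The receptor gene Nr1h3 read 8.03, 8.32 and 7.69 in USP7-titled arrays, against 8.46, 8.23 and 8.06 in control arrays, with a difference of -0.24 that did not pass (limma adjusted p = 0.307). Known liver X receptor targets went both ways: Lpcat3, which remodels phospholipids, rose by 0.50, Apoe, an apolipoprotein also made by macrophages, rose by 0.47, and Mylip, a ubiquitin ligase named after its value was seen, fell by 0.34.

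Genes of other processes moved with these groups on the same arrays. All 21 measured cell division genes were higher, with a median log2 change of 2.94, and their mean ran from 10.61 to 10.68 on USP7-titled arrays and from 7.86 to 7.98 on control arrays. They were led by Bub1 (3.71), Birc5 (3.70), Ube2c (3.46) and Ccnb2 (3.33). Of 20 measured myeloid markers 14 were higher and 1 lower, with a mean of 8.001 to 8.20 on USP7-titled arrays and 6.78 to 7.01 on control arrays. C1qb rose by 2.86, Lyz1 by 2.48, C1qc by 2.48 and S100a8 by 2.07, and Ctss, named after its value was seen, was lower, at -0.48 (limma adjusted p = 7.3e-06). The 5 that did not pass, named after their values were seen, were Cd68 (0.42), Cd163 (0.58), Itgam (-0.13), Cd14 (0.10) and Mpo (-0.13). The lowest value of any gene probe set was 2.21, so a marker value above 0 does not show that the marker was expressed. B cell markers averaged 7.65 to 7.77 on USP7-titled arrays and 7.57 to 7.65 on control arrays, and 1 of 9, Ms4a1, was higher and 0 lower. CD8 T and NK markers averaged 7.40 to 7.56 on USP7-titled arrays and 6.91 to 7.09 on control arrays, with Gzma (3.21) and Nkg7 (2.76) higher and Prf1 (-0.45) lower among 9. The median of these 9 was -0.15, with 5 below 0, so mean and median differ in sign; the 6 that did not pass, named after their values were seen, were Cd8a (0.02), Cd8b1 (-0.23), Klrd1 (0.19), Ncr1 (-0.15), Eomes (-0.52) and Klrk1 (-0.26). Dendritic cell markers averaged 6.68 to 6.798 on USP7-titled arrays and 6.73 to 6.798 on control arrays, with Itgax (0.42) and Irf8 (0.37) higher and Zbtb46 (-0.96) lower among 6. For comparison with these counts, 17.0% of all genes were higher and 15.9% lower. The part of cell division, of other cell types, of the low Foxp3 signal and of sex in the lipid gene changes was not tested. In bulk RNA fewer cells of a type and less RNA per cell cannot be told apart.

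**Figure D5:**
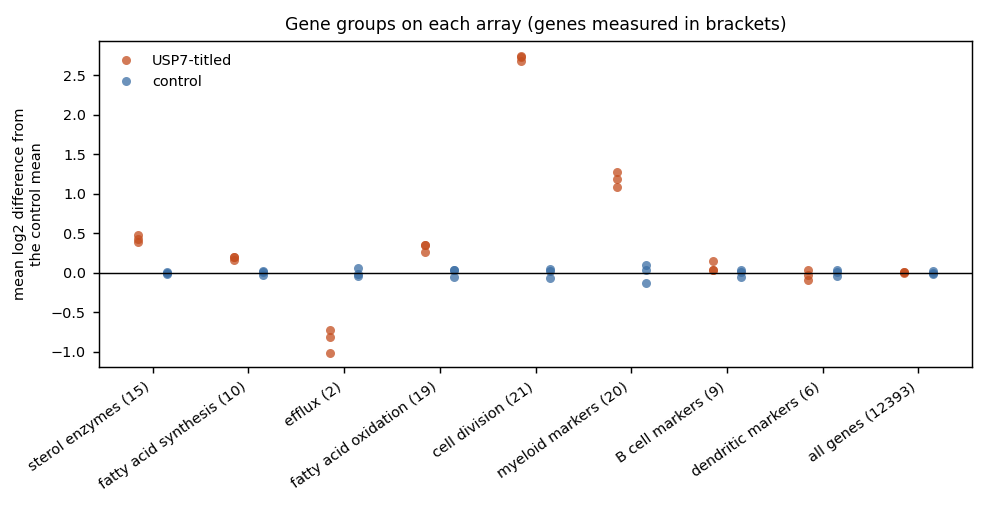
Mean log2 difference from the control mean (vertical axis) over the measured genes of each group (number in brackets) on every USP7-titled array (left points) and control array (right points). Sterol enzymes sit 0.39 to 0.47 above the control mean and the exporters at -1.01 to -0.72 on USP7-titled arrays, beside cell division genes at 2.68 to 2.75 and myeloid markers at 1.08 to 1.28.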

How the data were processed

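Biotin-labelled RNA on 6 arrays, 3 USP7-titled and 3 control, was read from the deposited value table. The authors deposited log2 values per probe set; the base was read from the values (2.21 to 14.47), and neither summarisation nor normalization is given in the sources used here. Array medians were 7.97 to 8.02. The table holds 22690 probe sets, 64 of them array controls; 20380 had a single gene symbol in the platform annotation, 691 several and 1555 none. Each of 12393 genes was read from its brightest probe set by the mean of the 6 arrays.

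The test was lmFit and eBayes with trend (limma 3.58.1, R 4.3.3), two-sided, USP7-titled minus control, Benjamini-Hochberg adjusted over all genes. The fit was tested on simulated data. The series text calls the samples independent without naming animals, so the p-values rest on sample spread that may be technical. With 3 arrays a group, their number limits precision; the median residual SD was 0.136. Members and lists were chosen with earlier results of these data known, so no count of members is independent support. All members, the label checks, Nr1h3, Msmo1 and Cpt1a are named; from each other list, the 4 largest changes past the threshold were named, or the 2 with the smallest p where none passed.

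Alternatives were quantile normalization, median centring, scaling to 18 hybridization spikes, leaving out the dimmest 40% of probe sets, averaging probe sets, adjusting over all probe sets, other variance models, array weights, leaving out X and Y genes, a replicate block, a threshold of 0.01 and leaving out each array.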

Additional observations from a re-analysis of the deposited data

How the results depend on the processing

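Over 18 other settings, 12 of processing and 6 that leave out an array, 11 to 17 of the measured genes were higher and 2 to 3 lower, and 7 to 11 sterol enzymes were higher; 0 fatty acid genes were lower in any of the 18. Leaving out an array gave 12 to 14 higher, 2 to 3 lower and 9 to 10 sterol enzymes higher. Scaled to the hybridization spikes, the median of all genes moved from -0.05 to 0.11 and that of the sterol enzymes from 0.44 to 0.60; 2968 genes were higher and 944 lower, 75.9% of calls higher against 51.5% as deposited, with 17 member genes higher and 2 lower. At a threshold of 0.01, 1206 genes were lower against 1976. Of 554 values of single member genes under these settings, 518 kept their direction and side of the threshold, 22 lost their call, 7 gained one and 7 changed sign, none of them called. The sign changes were Scap (0.031) and Elovl5 (0.10) under spike scaling, Cyp51 (-0.054) and Sc5d (-0.094) with averaged probe sets, Acaca (-0.46 to 0.0037 over left-out arrays) and Sc5d (-0.025 to 0.12 over left-out arrays). Changes of Fdps and Fdft1 with averaged probe sets include dim probe sets by construction; the cause of the other changes was not tested.

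With the replicate number as a block, 15 member genes were higher and 3 lower, 10 sterol enzymes were higher and 0 fatty acid genes lower, and 2098 genes were higher and 1961 lower; Nsdhl passed (limma adjusted p = 0.0119) and no other member call changed. Deviations of same-numbered arrays from their group means had r of 0.0785, -0.0599 and 0.094, so the numbers were not taken as pairs. Not every array correlated best with its own number, as USP7-titled replicate 1 had r = 0.0849 with control replicate 2. Signal over background was not analysed here, so changes of probe sets with low signal, such as those of Scd1 and Fads2, may be understated.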

Other observations

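Genes of fatty acid oxidation, which break down fatty acids, stood higher as a group in USP7-titled arrays. Of 19 measured, 12 were higher and 2 lower, with a median log2 change of 0.32, where over all genes 17.0% were higher and 15.9% lower. Cpt1a, the gatekeeper that lets long chains into mitochondria, read 10.18, 10.17 and 10.16 in USP7-titled arrays, against 9.41, 9.16 and 9.26 in control arrays, and so changed by 0.89 (SE 0.09, limma adjusted p = 2.7e-05). All 3 USP7-titled values lay above every control value. The dehydrogenases Hadh and Acadl rose by 0.998 and 0.76 and the isomerase Eci2 by 0.77. The members that fell were Acadm, the medium-chain dehydrogenase (-0.32), and Decr1, a reductase needed for polyunsaturated chains (-0.41), which were named after their values were seen. The mean over the 19 genes stood 0.26 to 0.35 above the control mean on the USP7-titled arrays.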
